A study of Mus musculus with 9 samples.

Results

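The cytosolic ribosomal protein genes measured here were 48 mouse genes of 12394 that had a probe set annotated to a single gene symbol. They were chosen by name: a probe set was taken if its only symbol was Rpl or Rps followed by a number (with at most a letter such as a, x, y or l and a further digit) or was Rplp0, Rplp1, Rplp2 or Rpsa. The rule used no measured value. It found 100 of the 22690 probe sets of the array, and each gene is given by its probe set with the highest mean over 9 arrays. Of the 48 genes, 46 passed the filter on detection (90 probe sets), 24 of the large and 22 of the small ribosomal subunit. The other two, Rpl3l and Rpl39l, had signals of 4.9 to 43.7 and 17.3 to 58.4 and were detected on 0 and 4 of the 9 arrays. Both are paralogues with tissue-restricted expression, Rpl3l in heart and skeletal muscle and Rpl39l in testis. A further 27 ribosomal protein symbols, among them Rpl3, Rpl5 and Rplp1, appeared only on probe sets that also name other symbols, and have no level of their own here.

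The arrays held RNA of whole lung from C57BL/6 mice, 3 arrays for each of 3 groups. Treated mice received exosomes, small vesicles shed by cells, of the murine melanoma line B16-F10 through the tail vein (10 µg of protein), and their lungs were taken 24 h or 48 h later. The sources used here give neither the treatment of the control mice nor the age and sex of the animals. The labels call the arrays biological replicates and number them 1 to 3 in each group. They do not say if single animals or pools were hybridised, and the p-values cover only the spread between arrays.

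The cytosolic ribosome joins amino acids into protein. Its small subunit reads the mRNA and its large subunit forms the peptide bond, and each carries a set of proteins, most of them needed in equal number for every ribosome. Messages of ribosomal proteins are among the most abundant in mammalian tissues. Most begin with a C followed by a run of pyrimidines, the 5′ terminal oligopyrimidine motif, through which growth signals passing through mTOR control their translation together, so that the amount of message need not follow the amount of protein made.

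The annotated starts of some of the genes described below are printed as examples of runs of pyrimidines near the start. Such a run need not begin with a C at the start, so a marked stretch need not be that motif. The examples do not show how common such a run is in the group, for which the share over all promoters is given after them. Each line gives 15 bases before and 15 bases from the start that RefSeq annotates (GRCm38.p6), read 5′ to 3′ on the gene's strand, and capitals mark the longest run of C and T that lies at least in part within 25 bases of the start.
Rps27, chr3:90213634-90213663, minus strand: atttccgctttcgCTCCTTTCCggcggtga
Rps6, chr4:86857353-86857382, minus strand: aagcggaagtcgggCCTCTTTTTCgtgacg
Rps18, chr17:33955651-33955680, minus strand: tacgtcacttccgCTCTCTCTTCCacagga
Rpl7a, chr2:26910792-26910821, plus strand: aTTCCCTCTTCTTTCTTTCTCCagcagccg
Rpl27a, chr7:109519180-109519209, plus strand: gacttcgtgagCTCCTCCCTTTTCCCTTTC
Rplp2, chr7:141447636-141447665, plus strand: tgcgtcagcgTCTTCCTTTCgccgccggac
Rpl22l1, chr3:28805493-28805522, plus strand: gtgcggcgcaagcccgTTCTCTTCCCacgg
Rpl7l1, chr17:46782642-46782671, minus strand: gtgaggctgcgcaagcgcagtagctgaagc
The first 7 hold a run of 9 to 21 pyrimidines. Rpl7l1, a paralogue of Rpl7, is shown as a gene without one, its longest run being 4. Other genes described below also lack a run of at least 8, among them Rpl22 (4 and 5 at its annotated starts), Rps3 (6) and Rpl12 (7). The RefSeq table held 50 promoters of 42 of the 48 genes, and 26 of the 50 (52%) had a run of at least 8 pyrimidines there, against 24.14% of the 32851 promoters in the table and 25.33% of 75 promoters of mitochondrial ribosomal protein genes. The letters CCGGAAG, the core that ETS factors bind, were found on either strand of the 300 bases around the start (250 before and 50 after) in 42% of these promoters, in 34.67% of the mitochondrial ones and in 8.858% of all. TATAAA, searched in the same way, was found in 12% of these and in 13.62% of all. A match describes the letters of the window and is not evidence of binding.

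Signals were comparable at the median over the series, where median signals ran from 174 to 185 units. Present calls covered 69.9% (24 h replicate 2) to 72.6% (control replicate 1) of probe sets. These arrays also had the highest and the lowest summed ribosomal protein signal. On each array 89 to 91 of the 100 ribosomal protein probe sets were called Present. All 8 markers of lung epithelium were detected on all 9 arrays, while of 5 melanocyte genes with a probe set Pmel, Dct and Tyrp1 were detected on none, Tyr on 4 (signal 6.3 to 26.4) and Mitf, which other cell types also express, on all 9 (324 to 417). The authors' table for the whole series holds the same values under other labels, with the control arrays in the columns labelled 24 h, the 24 h arrays in those labelled 48 h and the 48 h arrays in those labelled control. Names inside the sample files matched the group of the sample label for 9 of 9 arrays, so the sample labels were used. Replicate numbers were not checked in this way, and the table also holds control replicates 1 and 2 in exchanged order. In the table's column with the values of 24 h replicate 2, the last 273 rows were displaced: 272 of them held the sample file's value of the row before and 1 held none. Over these rows the sample file correlated with the mean of the other 8 arrays at 0.994 and the table at 0.190, as a description across probe sets. The sample file was used. The displaced rows include the probe sets of 2 ribosomal protein genes, Rps27 and Rpl37a. In a whole lung, fewer cells of a type and less RNA per cell cannot be told apart.

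Ribosomal protein probe sets were mostly bright. Of the 46 genes, 36 had a mean of 11 or more on the log2(signal + 16) scale and 10 lay below it, a boundary chosen after the values were seen. Signal depends on the probes as well as on the message, so levels are not compared between genes, but the spread between arrays differed with brightness. The SD within groups had a median of 0.070 over the 36 bright genes and 0.30 over the 10 dim ones. The 95% interval of a change in a bright gene reached 0.23 (log2) to either side at the median. It does not rest on the gene's spread alone, since limma draws each variance towards a value shared by all tested probe sets. This widens the interval and raises the p-value of genes with a small SD, such as Rplp2 (SD 0.029, standard error of the change 0.092).

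The first comparison asks which genes differed from control lung 24 h after exosomes. No ribosomal protein gene passed (0 of 46), nor did any of the 15886 probe sets tested (0%), by limma with a Benjamini-Hochberg adjusted p under 0.05. At an unadjusted p under 0.05 the count was 0 of 46, where 1.16% of all probe sets fell. The 46 changes ran from -0.19 to 0.34 on the log2 scale with a median of -0.0022, and 22 were above 0 and 24 below. Over all 9281 genes the median was 0.0020. Among the 36 bright genes, fold changes lay between 0.878 and 1.14, and the widest 95% intervals reached 0.715 and 1.34.

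Rpl22l1, a paralogue that takes the place of Rpl22 in the large subunit, had the highest t statistic of the group at 24 h. Its signal was 3405, 3580 and 3564 in the control arrays of replicates 1, 2 and 3, 4063, 4209 and 3934 at 24 h, and 3312, 3979 and 3725 at 48 h. All 3 arrays at 24 h lay above all 3 controls, while the 48 h arrays spread across both. The fold change at 24 h was 1.14 (95% CI 0.965 to 1.34, limma adjusted p = 0.9996). Rpl22 itself, whose protein represses Rpl22l1 in mouse cells, had the lowest t statistic at 24 h. Its signal was 4813, 4990 and 5566 in controls, 4617, 3918 and 5199 at 24 h, and 5703, 5188 and 5070 at 48 h. The array of 24 h replicate 2 was the lowest of the 9, and the groups overlapped. The fold change was 0.878 (95% CI 0.715 to 1.08, limma adjusted p = 0.9996). A second probe set of Rpl22 changed by -0.0072 (log2), so the value rests on 1 of 2 probe sets.

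The other genes with high t at 24 h were dim. Rpl27a, of the large subunit, had signals of 432, 442 and 301 in controls and 472, 472 and 504 at 24 h. These groups did not overlap, and the fold change was 1.26 (95% CI 0.822 to 1.94). Rps6, the small-subunit protein that S6 kinases phosphorylate, was 1.10-fold (95% CI 0.891 to 1.36), with control signals of 843 to 1045 and 24 h signals of 882.5 to 1140. Rpl7l1 was 1.08-fold (0.887 to 1.32). Rps27, a zinc-finger protein of the small subunit, was 1.18-fold (0.767 to 1.82). On the lower side stood Rps28 at 0.911-fold (0.767 to 1.08), Rps29 at 0.906-fold (0.755 to 1.09), Rps18 at 0.932-fold (0.799 to 1.09) and Rpl12, which lies at the base of the stalk, at 0.913-fold (0.737 to 1.13). The adjusted limma p was 0.9996 for all 10 genes.

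Of the 46 genes, 5 (Rpl22l1, Rpl27a, Rplp2 and Rps2 higher, Rps29 lower) had 24 h arrays that did not overlap the controls, where 1.98% of all probe sets did so upwards, 1.91% downwards and 3.88% in either direction. Some of these differences were small. Rplp2, a protein of the acidic stalk that recruits elongation factors, read 13.51, 13.49 and 13.51 (log2, quantile normalised) in controls and 13.57, 13.60 and 13.57 at 24 h, a 1.05-fold difference. Rps29 read 13.65 on all 3 control arrays, because quantile normalisation gives equal values to equal ranks, and 13.62, 13.30 and 13.62 at 24 h. At the top of the signal range, where 18 ribosomal protein genes stood beside 48 other genes at a mean of 13 or more, quantile-normalised values therefore carry rank and little else.

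**Figure D1:**
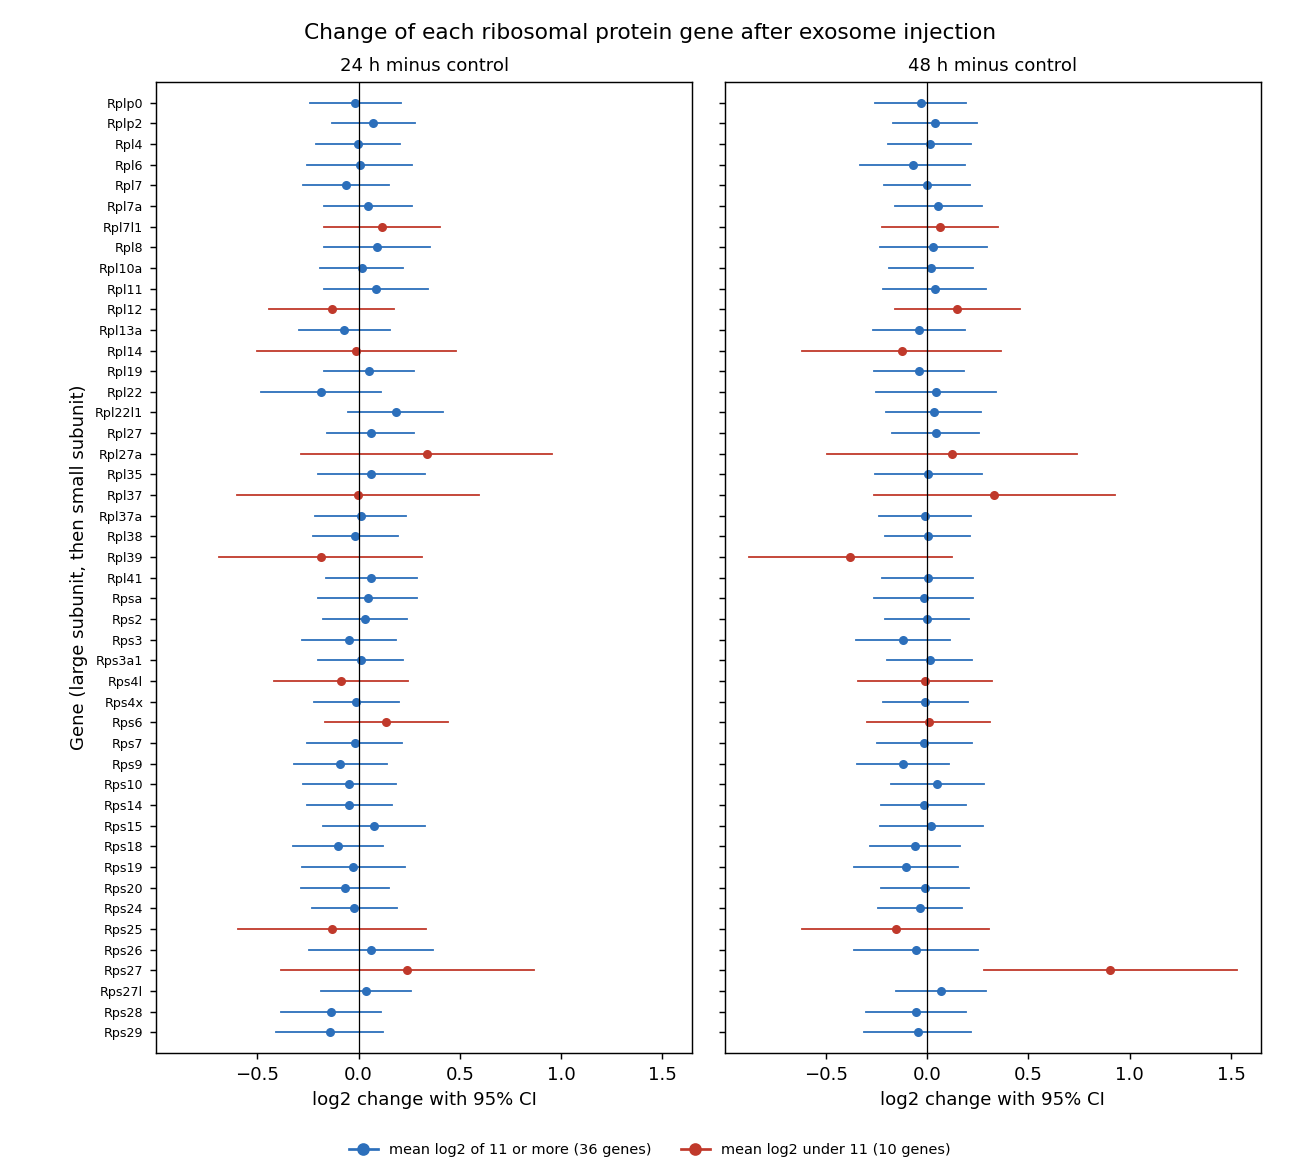
Log2 change (x axis, with 95% confidence interval from limma, 3 arrays a group) of each of the 46 tested ribosomal protein genes (rows) at 24 h and at 48 h against control, quantile normalised. Blue genes have a mean log2 signal of 11 or more and red genes a lower one: the blue points stay between -0.19 and 0.18, and the wide intervals and the far points are red, with Rps27 at 0.90 at 48 h.

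At 48 h against control, again 0 of 46 genes and 0% of probe sets passed the adjusted threshold of limma. At an unadjusted p under 0.05 there was 1 of 46, where 1.42% of all probe sets fell. The median change was 0.00018 (range -0.38 to 0.90), with 23 genes above 0 and 23 below, and the median over all genes was -0.0053. The 36 bright genes lay within 0.920- to 1.05-fold, with 95% intervals that reached 0.779 and 1.26 at the widest. Of the 46 genes, 1 was higher and 0 were lower with groups that did not overlap, where 2.36% of probe sets were higher, 2.12% lower and 4.48% either.

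That gene was Rps27. Its signal was 90.5, 95.2 and 92.9 in controls, 88.4, 154 and 101 at 24 h, and 156, 126 and 298 at 48 h. All 3 arrays at 48 h were above all controls, replicate 3 the farthest, and at 24 h replicates 2 and 3 stood above them and replicate 1 below. In the authors' deposited table the displaced row gives 1130 in place of 154 for 24 h replicate 2. The 48 h fold change was 1.87 (95% CI 1.21 to 2.88, limma adjusted p = 0.9998), and the differences between arrays of the same number were 0.78, 0.38 and 1.55 (log2). Without 48 h replicate 3 the log2 change fell from 0.90 to 0.58. A second probe set names Rps27 together with Rps27rt, a retrotransposed copy. Its signal was 7381, 9451 and 9575 in controls and 8120, 9950 and 8618 at 48 h, and its log2 change was 0.016. The 2 probe sets thus did not show the same change, and which of them follows the Rps27 message was not tested.

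The other genes at the ends of the 48 h list were Rpl37 (1.26-fold, 95% CI 0.833 to 1.90), Rpl12 (1.11-fold, 0.896 to 1.37), Rps27l (1.05-fold, 0.900 to 1.22) and Rpl7a (1.04-fold, 0.895 to 1.21) on the higher side. Rps27l is a paralogue of Rps27 that p53 induces in human cells. On the lower side were Rpl39 (0.769-fold, 0.544 to 1.09), which lines the peptide exit tunnel, Rps9 (0.921-fold, 0.786 to 1.08), Rps3 (0.920-fold, 0.784 to 1.08), Rps19 (0.931-fold, 0.779 to 1.11) and Rps25 (0.898-fold, 0.651 to 1.24). RPS19 is the gene most often mutated in human Diamond-Blackfan anaemia. The adjusted limma p was 0.9998 for all 10 genes. Rpl39 had the lowest t of the group. Its signals were 185, 220 and 224 in controls and 143, 106 and 223 at 48 h, so that replicates 1 and 2 were below every control and replicate 3 was not.

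Between the times, 0 of 46 genes passed at 48 h against 24 h (0% of probe sets), and 1 of 46, again Rps27, had an unadjusted limma p under 0.05, where 1.78% of probe sets did. The median was -0.016 (21 above 0, 25 below) against -0.0072 over all genes, and 0 genes had groups that did not overlap, where 2.45% of probe sets were higher, 2.12% lower and 4.58% either. Rps27 was 1.58-fold (95% CI 1.03 to 2.44), Rpl12 was 1.22-fold (0.981 to 1.50), Rpl22 was 1.17-fold (0.955 to 1.44), Rpl37 was 1.26-fold (0.833 to 1.91) and Rps10 was 1.07-fold (0.910 to 1.25). Rpl22l1 was 0.901-fold (0.766 to 1.06), Rps6 0.914-fold (0.741 to 1.13), Rpl19 0.937-fold (0.803 to 1.09), Rpl39 0.876-fold (0.619 to 1.24) and Rps26 0.922-fold (0.746 to 1.14). This comparison shares arrays with the other two and is no separate support for them.

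Several proteins with a role of their own stayed inside these ranges. Rplp0, the base of the stalk, had control signals of 9679, 10439 and 11185, 24 h signals of 10163, 11842 and 10927, and 48 h signals of 10042, 10209 and 10312, which overlapped throughout. Rpsa, the small-subunit protein also known as a laminin receptor, ran from 6766 to 9544 over the 9 arrays. Rpl11, which binds Mdm2 when ribosome assembly is disturbed, ran from 4127 to 5005, and Rps4x, of the X chromosome, from 8158 to 9760. Fau, a small-subunit gene outside the naming rule, was 0.977-fold at 24 h (95% CI 0.828 to 1.15) and 0.994-fold at 48 h (0.842 to 1.17). By subunit, the median change at 24 h was 0.013 over 24 large-subunit and -0.023 over 22 small-subunit genes, and at 48 h 0.015 and -0.015. At 24 h 14 of the 24 large-subunit and 8 of the 22 small-subunit genes were above 0, and at 48 h 17 and 6. On the authors' scale, without quantile normalisation, the medians were 0.088 and 0.055 at 24 h, so the small-subunit one turned, and 0.021 and -0.016 at 48 h. The difference between the subunits was not tested.

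The genes at the ends of the lists were often those with dim probe sets, most of which have a bright counterpart. In each of the 3 comparisons, 5 of the 10 genes at the ends of the list were among the 10 dim genes. The median size of change was 0.13 (log2) for dim and 0.049 for bright genes at 24 h, and 0.14 against 0.035 at 48 h. Of the 10 dim genes, 8 (Rpl12, Rpl14, Rpl27a, Rpl37, Rpl39, Rps6, Rps25 and Rps27) also appear on a bright probe set that the rule passed over because it names other symbols too, where only 3 of the 36 bright genes do. Rpl7l1 and Rps4l have none.

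The 2 kinds of probe set differed in some genes and not in others. Rps6 at 24 h changed by 0.14 (log2) on its own probe set and by -0.26 to 0.28 on the 9 it shares with a pseudogene, with a median of 0.11. Rpl14 at 48 h changed by -0.13 on its own and by -0.19 to 0.0041 on its 5 shared ones. Rps25 at 48 h changed by -0.16 on its own and by 0.070 on the shared one. At 48 h, Rpl39 changed by -0.38 (log2) on its own probe set and by -0.0062 on the one it shares with a predicted gene. Rpl37 changed by 0.33 on its own, by 0.035 and 0.040 on its pair of bright shared probe sets, and by 0.24 on a dim shared one. Rpl12 changed by 0.15 on its own and by -0.17 and -0.079 on its shared ones. Rpl27a at 24 h changed by 0.34 on its own and by -0.082 on the shared one. Over all 96 tested probe sets that name a ribosomal protein gene beside other symbols, 0 passed at either time, and the median changes were 0.013 at 24 h and -0.0063 at 48 h.

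**Figure D2:**
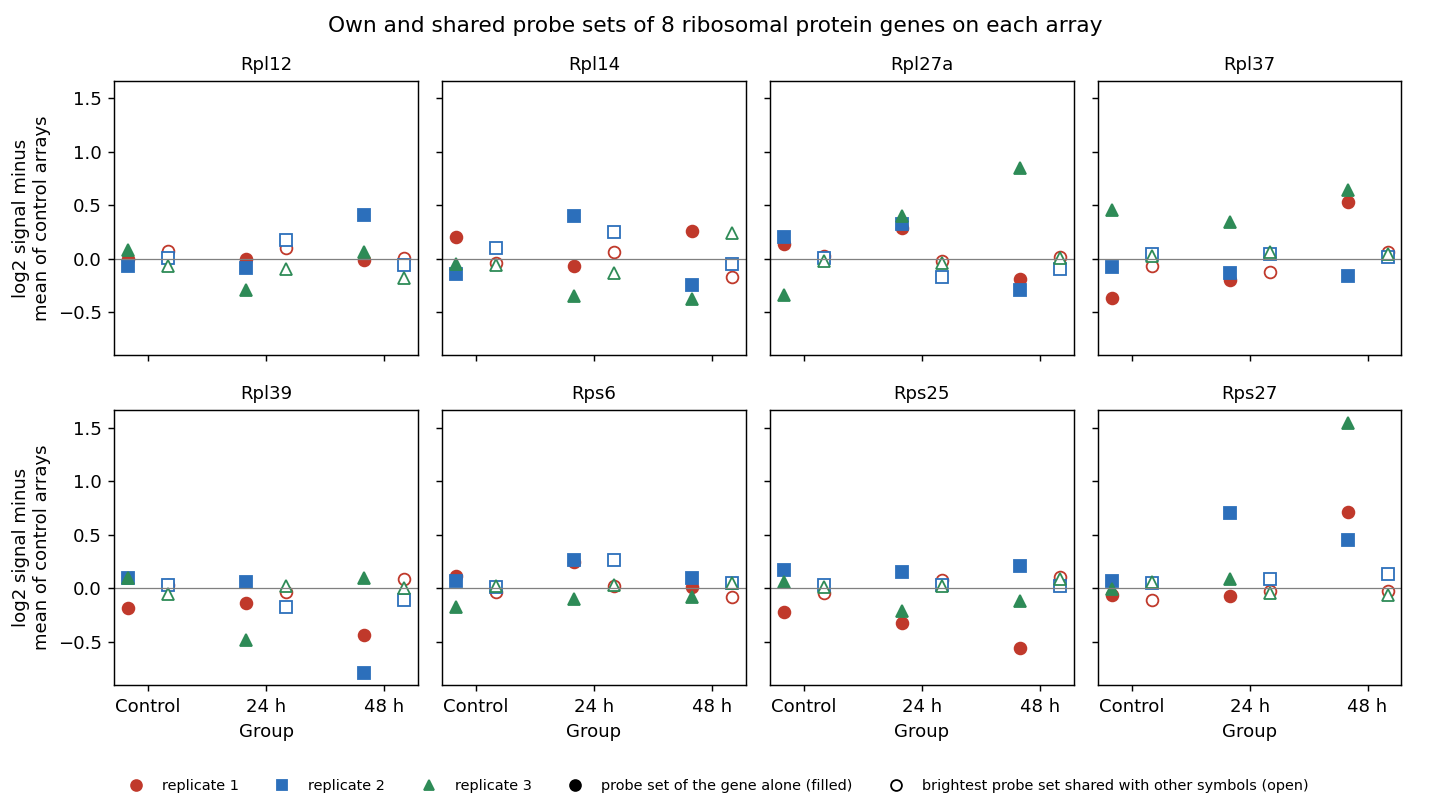
Log2 signal of each array (quantile normalised) minus the mean of the control arrays of the same probe set (y axis), by group (x axis), for the 8 dim ribosomal protein genes that also have a bright probe set shared with other symbols. Filled points are the probe set of the gene alone and open points its brightest shared probe set, with replicate numbers by colour and shape: Rps27 at 48 h lies between 0.45 and 1.55 on its own probe set and near 0 on the shared one.

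Probe sets of a single gene also differed from each other. For the 19 genes with at least 2 tested probe sets, the range of the log2 change over a gene's probe sets had a median of 0.17 at 24 h and 0.068 at 48 h. The widest was 0.63 at 24 h, in Rpl41, whose brightest probe set changed by 0.063 and whose others changed by 0.18, -0.24 and -0.45. At 48 h it was 0.69, in Rps10, with 0.051 on the brightest and -0.52 on the lowest probe set.

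The 9 arrays also differed by replicate number. A limma F-test for any difference between the numbers, in a model that holds the groups, passed for 1 of the 46 genes (2.17%), where 16.6% of all probe sets passed. At an unadjusted p under 0.05 it was 5 of 46 after quantile normalisation, where 38% of probe sets fell. Without quantile normalisation 1 of 46 passed the adjusted threshold, where 16.9% of probe sets did. More of the 46 genes then had an unadjusted p of the F-test under 0.05. Bright ones such as Rplp2 (0.0135), Rps15 (0.0179) and Rpl37a (0.0184) were among them, and the share of all probe sets at that level was not counted. After quantile normalisation the share past the adjusted threshold was 9.57% among probe sets with a mean of 11 or more, and 0 of the 36 bright ribosomal protein genes passed. Most of these 36 lay higher in the range, where fewer genes passed on this scale. At a mean of 12 to 13, with 16 of them, the share of other genes was 6.25%, and at 13 or more, with 18 of them, 4.17%. Without quantile normalisation these shares were 8.82% and 18.75%, and 0 of the ribosomal protein genes in either bin passed. With quantile normalisation, the count over all 90 tested probe sets of the group was 5 (5.56%), which include a dimmer probe set of Rpl22 and a pair of dim ones of Rpl41. Among the bright genes of other kinds it was 98 (9.39%), and among 74 mitochondrial ribosomal protein genes 5. The difference between the 46 genes and these backgrounds was not tested.

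The gene that passed was Rps25, a small-subunit protein that several viral internal ribosome entry sites require, on its dim probe set. Its signal in replicates 1, 2 and 3 was 248, 322 and 304 in controls, 230, 315 and 246 at 24 h, and 185, 329 and 265.4 at 48 h. Replicate 1 was the lowest and replicate 2 the highest in every group. Replicate 1 was below replicate 2 by -0.54 (log2) and below replicate 3 by -0.28 (adjusted p of the F-test 0.0284). The adjusted p was above 0.05 when any 1 of 5 of the 9 arrays was left out (lowest 0.0703, without 24 h replicate 1), the others being control replicate 1, 24 h replicate 2 and 48 h replicates 1 and 2. The probe set that Rps25 shares with 2 predicted genes did not show it, with an adjusted p of 0.981. Rpl37 (0.0749) was next in order. It passed with an offset of 64, and without 48 h replicate 1 it was the only gene of the group to pass. After it came Rps6 (0.0913), Rps4l (0.0960), Rps26 (0.109), Rpl8 (0.144), Rpl7l1 (0.186), Rps15 (0.206), Rpl35 (0.229) and Rpl6 (0.268).

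Without quantile normalisation the bright genes of the group moved together, and they did so by array. On the authors' scale, the signal of control replicate 1 was the lowest of the 9 arrays for 29 of the 36 bright genes, and that of 24 h replicate 2 the highest for 24. Replicate 1 was the lowest of its group for 34 of 36 genes in controls, 26 at 24 h and 27 at 48 h. The mean log2 signal of the 36 genes in replicates 1, 2 and 3 was 12.79, 13.003 and 12.98 in controls, 12.88, 13.11 and 12.98 at 24 h, and 12.86, 12.97 and 12.93 at 48 h. Their summed signal was 264103 on control replicate 1 and 333733 on 24 h replicate 2, with the other 7 arrays between 277926 and 308347. After quantile normalisation the means of all 9 arrays lay between 12.92 and 12.97. The 10 dim genes were split on the authors' scale. For replicate 1 against 2, 4 were above 0 and 6 below (median -0.012), and against 3 again 4 and 6 (median -0.16).

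**Figure D3:**
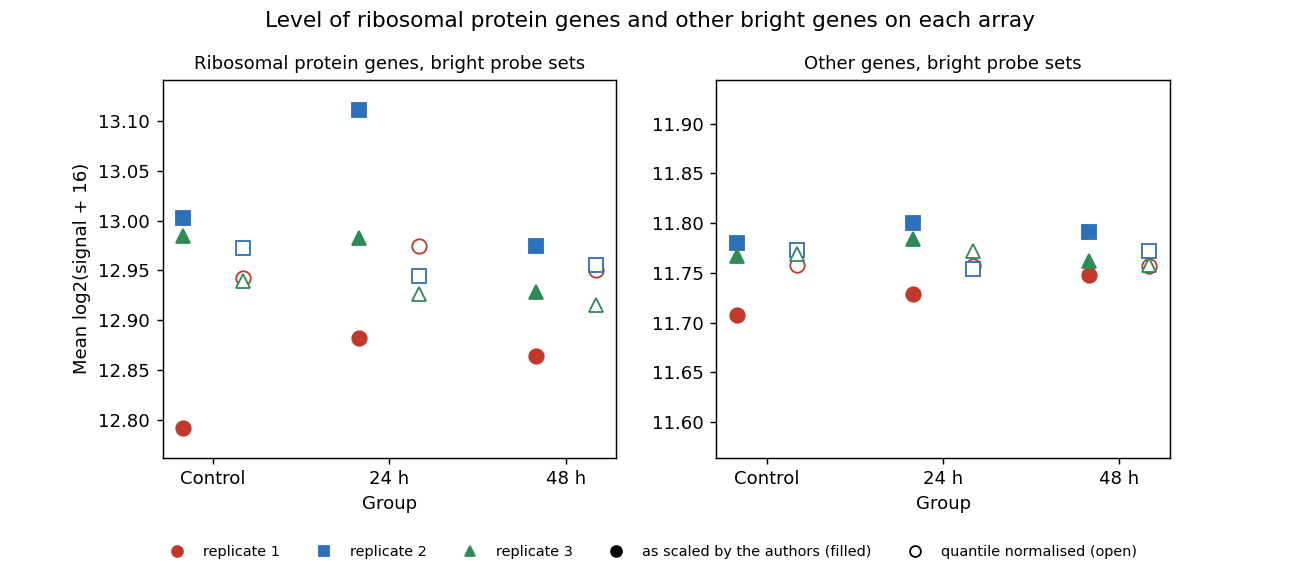
Mean log2 signal (y axis) of the 36 bright ribosomal protein genes and of the other bright genes, by group (x axis), 1 point an array, with replicate numbers by colour and shape. Filled points are on the authors' scale and open points quantile normalised, and both panels span the same height: on the authors' scale replicate 1 is the lowest of each group, at 12.79 to 12.88 for ribosomal protein genes, and the open points lie close together.

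The shift of the bright genes moves the comparison of groups. On the authors' scale the median change of the 46 genes at 24 h was 0.070 (log2), with 35 above 0, where the median over all genes was -0.0080. Without 24 h replicate 2 it was -0.0033, and without control replicate 1 it was 0.012. At 48 h against 24 h it was -0.073, with 37 of 46 below 0, and -0.011 without 24 h replicate 2. At 48 h against control it was -0.0050. The adjusted limma count was 0 of 46 in all 3 comparisons on this scale too.

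The difference by number also depended on the scale. On the authors' scale the median difference of replicate 1 from 2 was -0.16 and from 3 was -0.12, with 39 and 40 of 46 genes below 0. After quantile normalisation these medians were 0.012 and 0.028. Among the other bright genes the authors' scale gave -0.073 and -0.039, against -0.19 and -0.12 for the 36 bright ribosomal protein genes. These sets were not matched in level, with means of 11.71 and 12.79 (log2) on control replicate 1. Whether the larger difference goes with the kind of gene or with its level was not tested. The top of the signal range differed by number too: the 99th percentile of signal was 6208 to 6632 on the arrays of replicate 1 and 6945 to 7592 on the other 6. Markers of several cell types leaned to one side by number as well, though few passed the F-test. On the quantile scale 4 of 7 cardiac muscle markers passed, and 1 of 6 (16.7%) each for B cells and endothelium. For the other cell types 0 passed, beside a background of 16.6% of probe sets.

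Markers of lung epithelium moved with the bright ribosomal protein genes on the authors' scale and not after quantile normalisation. On the authors' scale 7 of 8 were lower in replicate 1 than in 2 (median -0.29, log2) and 8 of 8 lower than in 3 (median -0.30), 2 passed the F-test, and their summed signal was 58626 to 62955 on the arrays of replicate 1 and 71803 to 85794 on the others. After quantile normalisation these medians were -0.11 and -0.13 and 0 passed, where the 36 bright ribosomal protein genes had medians of 0.026 and 0.029. On the quantile scale, 6 of 6 endothelial markers were lower in replicate 1 than in 2 (median -0.19) and 1 passed, with summed signals of 17083 to 18246 against 18695 to 21513. Of 6 tested B cell markers 5 were lower (median -0.48) and 1 passed, with summed signals of 2112 to 3479 against 2596 to 4115 and Pax5 detected on none. Of 6 T cell markers 5 were lower (median -0.27) and 0 passed, with 684 to 878 against 890 to 1010.

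Other lists were higher in replicate 1 than in replicate 2 or 3. Of 7 cardiac muscle markers, 7 were higher in replicate 1 than in 3 (median 0.69), 4 against 2 (median 0.072), and 4 passed the F-test. Their summed signals were 10878 to 13540 against 5755 to 12643. All 7 were also higher in replicate 2 than in 3 (median 0.61), so replicate 3 was the one set apart, on the low side. All 4 adipocyte markers tested were higher than in 2 (median 0.63) and 0 passed, with 5737 to 8160 against 3346 to 6138 and Lep detected on none. Both skeletal muscle markers tested were higher than in 2 (median 1.02) and 0 passed, with 426 to 1968 against 146 to 367. Most of this lay on 24 h replicate 1, with a mean log2 of 9.88 against 7.04 in replicate 2. Replicates 1 and 2 read 7.32 and 7.21 in controls, and 7.30 and 7.21 at 48 h. Of 3 erythroid markers 2 were higher (median 0.19) and 0 passed, with 1217 to 1393 against 730.3 to 1356. Neutrophil markers rested on 1 array: their mean was 0.61 (log2) higher in replicate 1 than in 2 over the 3 groups and 0.049 without the 48 h arrays, 0 of 6 passed, and Cxcr2 was detected on 1 array. Their summed signal was 27380 on 48 h replicate 1, 12934 and 10664 on 24 h and control replicate 1, and 7343 to 15390 on the others. The part of any of these lists in the shift of ribosomal protein signals was not tested.

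The spread between arrays depended on the scale too. After quantile normalisation the median SD within groups was 0.082 (log2) over the 46 genes, 0.18 over all genes and 0.13 over the other bright genes. On the authors' scale it was 0.15 for the 46 genes, with 0.18 and 0.14 for the others. In the bin of genes with a mean of 13 or more, the SD on the quantile scale was 0.062 for 18 ribosomal protein genes and 0.076 for 48 others, and on the authors' scale 0.12 and 0.15. The correlation of deviations from group means over the 9 arrays, taken between pairs of the 36 bright genes, had a median of 0.75 on the authors' scale and 0.12 after quantile normalisation. These correlations are descriptive, since all pairs share the same 9 arrays and their scaling.

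**Figure D4:**
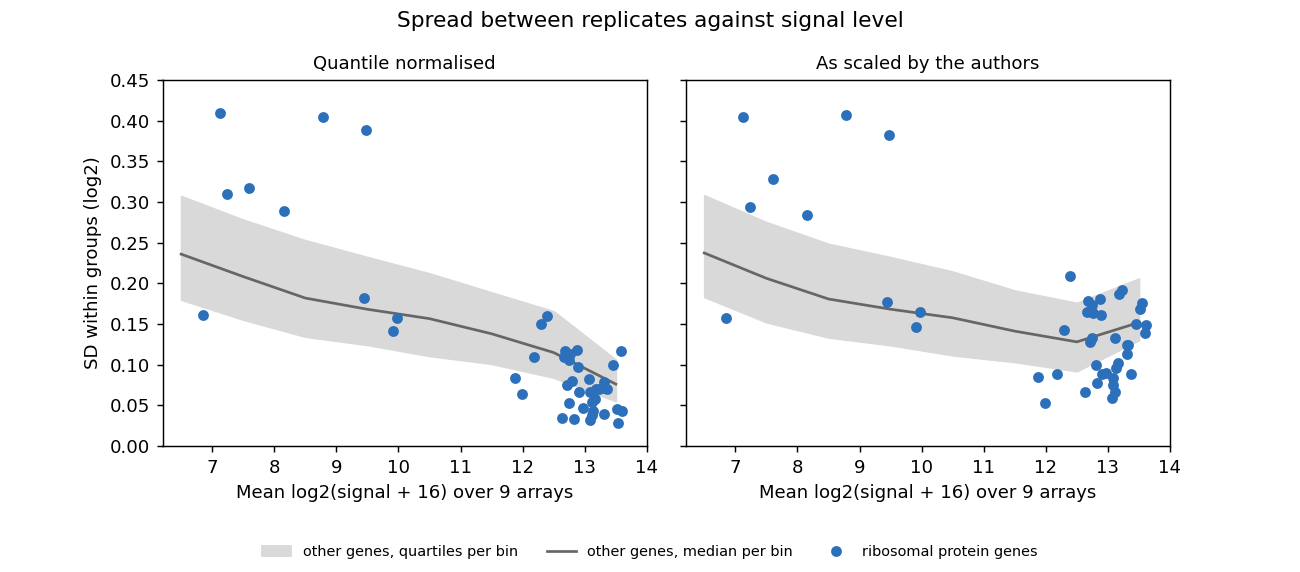
SD within groups (y axis, log2) against mean log2 signal over 9 arrays (x axis) for the 46 ribosomal protein genes (points), with the median and quartiles of other genes in bins of signal level (line and band). Most points gather at the bright end, at a median of 0.070 after quantile normalisation and 0.13 on the authors' scale, while Rps27, Rpl27a and Rpl37 stand at 0.39 to 0.41.

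Other genes of translation and of ribosome production, taken as lists, also had 0 members past the adjusted limma threshold in each comparison of groups. The 10 tested elongation factors and related proteins, such as Eef1a1, which brings aminoacyl-tRNA to the ribosome, and Eef2, which moves it along the mRNA, had medians of -0.015 at 24 h and -0.010 at 48 h, with Eef1a1 at -0.019 and 0.0034 and Eef2 at -0.013 and -0.011. Of 25 initiation factors, 16 were above 0 at 24 h (median 0.029) and 5 at 48 h (median -0.034). Of 41 ribosome biogenesis genes, 20 were above 0 at both times, with medians of -0.0076 and -0.010. Myc, which drives ribosome production, changed by 0.20 and 0.23 (log2) and did not pass. Of 74 mitochondrial ribosomal protein genes, which serve another ribosome, 55 were above 0 at 24 h (median 0.038) and 41 at 48 h (median 0.021), where 4703 and 4437 of all 9281 genes were. Some of these directions turned without quantile normalisation. The elongation factors then had a median of 0.031 at 24 h, and the mitochondrial ribosomal protein genes a median of 0.023 with 47 above 0 at 24 h and of -0.0031 with 37 above 0 at 48 h.

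By replicate number the F-test passed for 14.9% of all 9281 genes and 16.6% of probe sets. It passed for 7 of 41 biogenesis genes (17.1%: Fbl, Nop58, Ncl, Pes1, Rrp1b, Rrp12 and Noc4l) and 4 of 25 initiation factors (16%: Eif3a, Eif3k, Eif4b and Eif5), shares near that background, and for 0 of 10 elongation factors. The difference between these lists and the cytosolic ribosomal protein genes was not tested. Ncl, the nucleolar protein nucleolin, had the smallest adjusted p among these (0.0110). Of 11 regulators of ribosome synthesis and ribosome stress, 2 passed (18.2%), Rps6kb2, a kinase of Rps6 (0.0477), and Cdkn1a, the cell cycle inhibitor p21 (0.00574). These counts are after quantile normalisation. On the authors' scale 2 of 10 elongation factors (20%), 6 of 41 biogenesis genes (14.6%) and 3 of 25 initiation factors (12%) passed, where 15.1% of all genes did.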

How the data were processed

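Lung RNA was hybridised to 9 single-colour Affymetrix arrays, 3 for each group. The deposited sample files hold, per the file headers, a linear signal intensity and a detection p-value with its call for each probe set. The authors had summarised the intensity and scaled it: after trimming 2% of values at either end, all arrays had a mean of 500.1 to 500.2. Software not given in the sources used here made the values, and the labels name a larger chip than the files hold. The deposited detection p-value was used only as a filter: probe sets with a value under 0.05 throughout 1 group or more were tested, namely 15886 for 9281 genes. Gene symbols came from the platform annotation, where 20393 probe sets had 1 symbol, 691 several and 1606 none, and an update through Entrez identifiers changed 0.

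Here 16 was added to each intensity, log2 was taken, the 64 control probe sets were dropped and arrays were quantile normalised. Fold changes are on this offset scale, which understates changes of dim genes. Models were fitted with lmFit and eBayes of limma 3.58.1 (R 4.3.3, two-sided tests) over all 9 arrays, giving each group its mean, and p-values were adjusted by Benjamini-Hochberg over all tested probe sets, with a threshold of 0.05. The fit was tested on simulated data. The number of arrays limits the precision. The ribosomal protein genes, the other lists and the rule for named genes (the 5 highest and 5 lowest by t in each comparison, the 10 smallest p of the F-test, and a set of genes with roles of their own) were chosen with earlier results of these data known.

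Replicate numbers are shared between groups. Deviations from group means correlated at 0.275 to 0.651 for the 9 pairs that share a number and at -0.561 to 0.308 over the 18 pairs that differed in number and group, so the numbers were taken to pair the arrays. The main model of the groups does not use this pairing, so its intervals and the SD within groups include differences between numbers. With the number as a block, the standard error of the 24 h change fell from 0.207 to 0.101 in Rps25. In Rpl27a it rose from 0.276 to 0.286. Alternatives were other scalings and offsets, no detection filter, the mean of a gene's probe sets, the labels of the authors' series table, the replicate number as a block, and each array left out. Those that leave out arrays without quantile normalisation were chosen after seeing the data. The authors' table of intensities held the signals of the sample files within 0.051 units in 8 of 9 columns and was displaced by 1 row over the last 273 probe sets of the remaining one. Its column medians were 174 to 185, on a linear scale without centring. The columns of per-sample values not used numbered 0. Sequences are from RefSeq, and no genome was used.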

Additional observations from a re-analysis of the deposited data

How the results depend on the processing

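The count of ribosomal protein genes past the adjusted limma threshold was 0 in all 3 comparisons of groups under every alternative run. With the replicate block it was 0, the medians were the same at -0.0022, 0.00018 and -0.016, and the block changed no other call. The median change at 24 h was 0.070 without quantile normalisation (0.070 with the replicate block, 0.068 without the 3 arrays of replicate 1) and 0.094 under median scaling. With 1 array left out it ran from -0.0086 to 0.020. With 1 array left out and no quantile normalisation it was 0.012, 0.10 and 0.097 on leaving out control replicate 1, 2 or 3, 0.11, -0.0033 and 0.082 on leaving out 24 h replicate 1, 2 or 3, and 0.070 on leaving out any single 48 h array. At 48 h it was -0.065 without control replicate 1 on that scale. At 48 h against 24 h it was -0.073 without quantile normalisation (-0.073 with the replicate block, -0.091 without replicate 1) and on that scale, in the same order of arrays, -0.073, -0.073 and -0.076 for the controls, -0.13, -0.011 and -0.095 for 24 h, and -0.052, -0.092 and -0.073 for 48 h.

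By replicate number, the count of 1 gene became 2 with an offset of 64 (with Rpl37), 2 for means of probe sets (with Rpl22), 0 without the detection filter, 0 with the series table's labels, and 0 to 1 with 1 array left out (Rps25 in 4 cases, Rpl37 in place of it without 48 h replicate 1). The 2639 probe sets became 905 without the filter, 1679 for means of probe sets (of 9281 genes), 0 with the table's labels, which mix the numbers, and 403 to 2590 with 1 array left out, lowest without control replicate 1. The median difference of replicate 1 from 2 was -0.16 without quantile normalisation and -0.20 under median scaling, that of 1 from 3 was -0.12 and -0.11, and that of 2 from 3 was 0.12 under median scaling.

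With the table's labels, which set other arrays against each other, signs turned. At 24 h these were Rpl22l1 -0.033, Rpl27a -0.12, Rps6 -0.0084, Rpl7l1 -0.064, Rps27 -0.90, Rps28 0.057, Rps29 0.047 and Rps18 0.062. At 48 h they were Rpl37 -0.33, Rpl12 -0.28, Rps27l -0.034, Rpl7a -0.0095, Rpl39 0.19, Rps9 0.028, Rps3 0.074, Rps19 0.078 and Rps25 0.026. Rps27 at 48 h was 0.24 in the table, whose column has displaced rows, and -0.66 with the table's labels on the values of the sample files (-0.90 at 24 h), an alternative chosen after seeing the data. At 48 h against 24 h they were Rpl12 -0.13, Rpl22 -0.19, Rpl37 -0.0011, Rps10 -0.045, Rpl22l1 0.18, Rps6 0.14, Rpl19 0.052 and Rps26 0.062. Elsewhere 4 turned: Rps18 at 24 h to 0.0033 and Rps10 at 48 h against 24 h to -0.0034 for means of probe sets, Rps25 at 48 h to 0.045 without 48 h replicate 1 (-0.34 to 0.045 over the arrays left out), and Rpl39 at 48 h against 24 h to 0.014 without 48 h replicate 2 (-0.43 to 0.014). None of these values passed the adjusted threshold, and the cause of the last 4 was not tested. Dim probe sets limit what can be seen: the widest intervals among the 46 genes were those of genes with a mean under 11, though not in the order of their signal.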
